A study of Mus musculus with 13 samples.

Results

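The cell of well C3 was 1 of 10 single cells, and of 13 libraries in all, sequenced in a study of how B cells commit to growth after stimulation. It was chosen by its well, as the 1 large cell that the study's authors left out of their own analysis, and is described here against the 9 other cells. They left it out because its transcript levels correlated poorly with those of the other cells. Naive B cells had been purified with magnetic beads from spleens of wild-type C57BL/6 mice 6 to 8 weeks old and kept with 250 nM of a CpG oligodeoxynucleotide (as the sample labels give it, while the protocol gives the same figure in ng/mL) for 24 h, and single cells were then captured on a microfluidic chip, imaged for size and sequenced. C3 was labelled a large cell, as were the cells of wells C1, E1, E3 and G2, and the cells of wells A2, C12, C7, F7 and H1 were labelled small. All 10 cells carried the same genotype and received the same stimulus for the same time, and the labels tied no cell to an animal or a culture. With 1 cell on one side no test was possible, so every comparison is a description: the value in C3, then the lowest, the median and the highest over the 9 other cells.

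A B cell makes an antigen receptor of an immunoglobulin heavy chain, here mostly IgM, and a kappa or lambda light chain, held at the surface by the signaling pair CD79A and CD79B. It also carries MHC class II molecules, with which it presents antigen to T cells. Unmethylated CpG DNA is sensed inside the cell by Toll-like receptor TLR9, which signals through MyD88 to the NF-κB family of transcription factors and leads B cells to grow and divide. Spleens hold other cells that sense CpG DNA as well, among them dendritic cells and macrophages, which are known for the secretion of cytokines and chemokines after stimulation.

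Levels are given as CPM, the reads of a gene scaled to a fixed total of gene counts per library. The library of C3 held 4129333 gene counts, against 3311235 (C7) to 6311782 (E1) in the 9 other cells. Reads fell on 3519 genes in C3 and on 4113 to 8656 in the others. At an equal depth of 3311235 counts, the expected number was 3404 genes in C3 and 4085 to 8359 in the others. C3 thus still had the fewest. The 10 genes with the most reads took 16% of the counts in C3 and 7.22% to 13.1% in the others. Ribosomal protein genes took 3.39% in C3 and 4.40% to 7.62% in the others, while mitochondrially encoded genes took 2.02% in C3 and 1.26% to 5.58% in the others. C3 had a relative volume, from its image, of 4.03, against 3.59 to 4.54 in the other large cells and 1 to 1.36 in the small cells. In C3, 1 read was worth 0.242 CPM, and a count of 0 allowed a level of up to 0.727 CPM (3 counts). These limits cover counting error only, since the libraries were made by PCR without molecular identifiers.

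The data went against the B cell label of C3. Of 23 B cell identity genes in the count table, C3 had 2 at 10 CPM or more (Ighm and Cd79b), where the 9 other cells had 13 to 20. Of all 9071 genes at 10 CPM or more in any of the 10 cells, 20.8% reached that level in C3. In place of the B cell genes C3 held high levels of its given markers Sdc4, Dnase1l3, Ccl5, Il12b, Marcks, Il7r and Fscn1. Of these, Il12b and Fscn1 are known from mature dendritic cells. C3 had no read of Itgax, Flt3 or Zbtb46, which define dendritic cells and are named here after their values were seen. Of 14 markers shared by dendritic cells, these and class II genes among them, 6 were at 10 CPM or more in C3 and 7 had no read. Of all 9071 genes, 20.8% and 68.2% were so. In C3, 5 of the 14 were above and 4 below all 9 other cells, beside 8.3% and 6.7% of all genes. C3 is therefore called by its well and given no other cell type name.

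The 7 marker genes, given beforehand as markers of C3, were each above every other cell on the CPM scale. That place is thus no separate result. Together they held 81251 CPM in C3, against 304 (H1) to 6787 (G2) in the others, with a median of 2667. Sdc4 codes for syndecan-4, a heparan sulfate proteoglycan of the cell surface. It had 32353 CPM in C3, against a lowest of 226 (H1), a median of 2126 (A2) and a highest of 6506 (C7), so that all 10 cells had the gene and C3 stood 4.97-fold over the next cell. Dnase1l3, a secreted nuclease that digests DNA in chromatin, had 15167 CPM in C3 and 0 to 1463 in the others, with a median of 513. C7 and E3 had no read of it.

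Ccl5 codes for a chemokine that draws T cells and monocytes. Its level was 14763 CPM in C3 and 474 CPM in A2, and the other 8 cells had no read. Il12b, which encodes the subunit shared by the cytokines IL-12 and IL-23, had 7043 CPM in C3, 466 CPM in A2 and 0.158 CPM (1 read) in E1, with no read in the other 7 cells. Both cytokine genes thus had a high level in C3, a lower one in A2 and at most 1 read elsewhere. Il7r, the alpha chain of the IL-7 receptor, had 1698 CPM in C3 and 62.8 CPM in A2, and no read in the other 8 cells.

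Marcks and Fscn1 act on actin at the plasma membrane: Marcks is a membrane-bound substrate of protein kinase C, and Fscn1 (fascin) bundles actin filaments and is known from mature dendritic cells. Marcks had 9748 CPM in C3 and 945 CPM in A2, and 0 to 13.6 CPM in the other 8 cells. Fscn1 had 479 CPM in C3 and 121 CPM in A2, with no read in the other 8. For 5 of the 7 markers, A2 was thus the only other cell or by far the highest one. On the spike-in scale, where each count is multiplied by the deposited factor of its library, 6 of the 7 markers in C3 stayed above every other cell. Fscn1 was the exception, with 401 in C3 and 588 in A2.

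**Figure D1:**
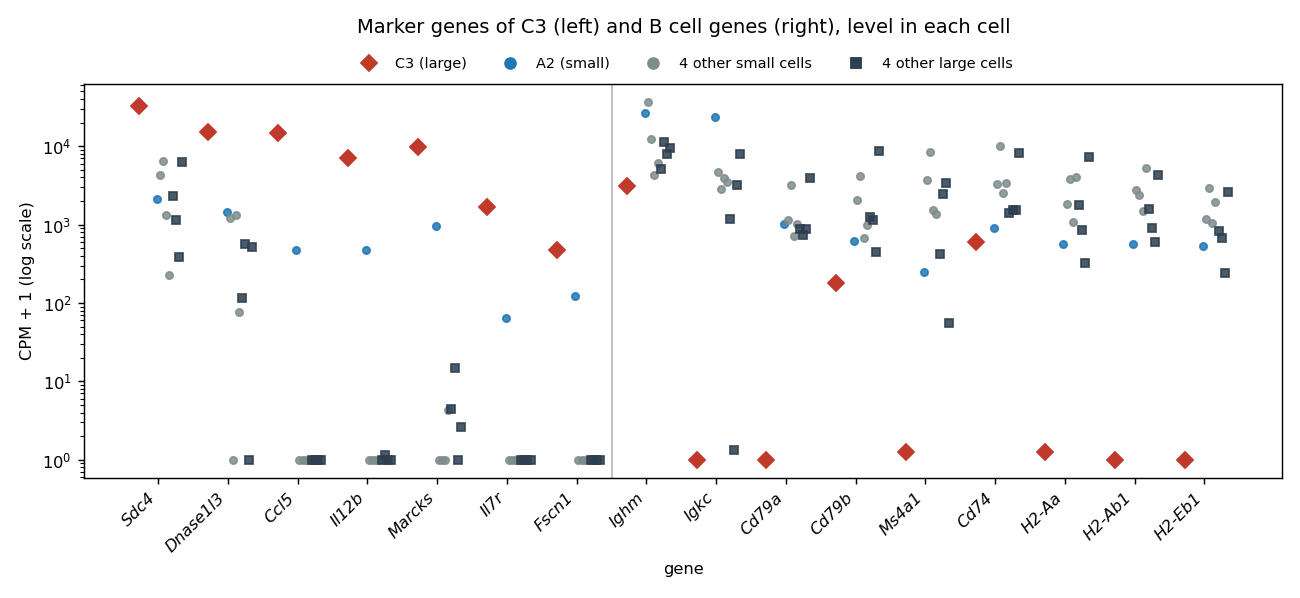
CPM plus 1 (log axis) of the 7 marker genes and of 9 B cell and MHC class II genes in each of the 10 cells, with C3 as diamonds left of the other cells. C3 had the highest value for each of the 7 markers, from 479 CPM for Fscn1 to 32353 CPM for Sdc4, and the lowest for each of the other 9 genes. The 7 markers had been given for C3, and several of the 9 were chosen as missing there, so these places are no separate result.

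Genes were next sorted by where C3 stood against the whole range of the 9. Of 9071 genes at 10 CPM or more in any of the 10 cells, 1884 (20.8%) reached that level in C3, the fewest of any cell, against 2228 (G2) to 5426 (A2) in the others. C3 had no read of 6188 of them (68.2%). Numbers of list members on or unread in C3, given below, stand beside these shares. At 10 CPM or more in C3 and higher there than in each of the 9 were 753 genes (8.3%), and 608 (6.7%) were lower than in each of the 9.

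Some genes were read in no other cell. Of the 9071 genes, 65 (0.717%) had 10 CPM or more in C3 and no read in any of the 9, with levels of 11.9 to 2034 CPM, a median of 85.7 CPM and 32 genes at 100 CPM or more. Without A2 among the others, the number was 115. Chst11, a sulfotransferase that modifies chondroitin sulfate, had 2034 CPM in C3, at least 2244-fold higher than in the others, whose floor of 3 counts in a library lay at up to 0.906 CPM. Bcl2l14, a member of the Bcl-2 family, had 1868 CPM in C3, and the transcription factor gene Klf11 had 1278 CPM. Mmaa, which serves the use of vitamin B12 in mitochondria, had 1214 CPM, and B4galt4, a galactosyltransferase, 1010 CPM. All of these levels stand against 0 reads in the 9 other cells.

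Klrk1, which encodes the activating receptor NKG2D of natural killer and T cells, had 847 CPM in C3, and Klri1, another killer cell lectin-like receptor, 550 CPM. Cdkn2b, an inhibitor of cyclin-dependent kinases, had 483 CPM in C3, Eno2, the enolase form typical of neurons, 622 CPM, and Rasa4, which turns Ras off, 650 CPM. Tmem51 (1318 CPM), Tuft1 (1035 CPM), Tmem150a (569 CPM) and Hook2 (431 CPM), a linker of cargo to microtubules, were also among the 15 genes of this kind with the highest levels. Of the 65 genes, 3 had a read in the pooled library of cells after 24 h, which held 1740862 counts.

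A wider group was read in other cells too but stood far higher in C3. In C3, 319 genes (3.52%) had 10 CPM or more and at least 4-fold the highest of the 9, the 65 genes above included. Their median fold over the highest other cell was 15.3, and 61 stood 100-fold or more above it. Dennd5a, an activator of Rab GTPases, had 1915 CPM in C3, against 0 to 2.67 CPM in the others, and Adcy6, an adenylyl cyclase, had 681 CPM in C3 and up to 0.576 CPM in the others. For both genes the highest other cell held a level under 3 CPM.

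The number of such genes did not set C3 apart, but their share of its counts did lie outside the range of the others. When each cell in turn was set against the 9 rest, 44 to 200 genes were read in that cell alone and 241 to 522 stood at least 4-fold above the rest, and the 65 and 319 of C3 lay inside these ranges. The genes above the rest held 34.5% of the counts of C3, against 4.63% to 13.1% in the other cells. Genes without a read in the cell though at 10 CPM or more in at least 7 of the rest numbered 550 in C3 and 6 to 388 in the others, and genes far below the lowest other cell 192 in C3 and 0 to 81 in the others.

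**Figure D2:**
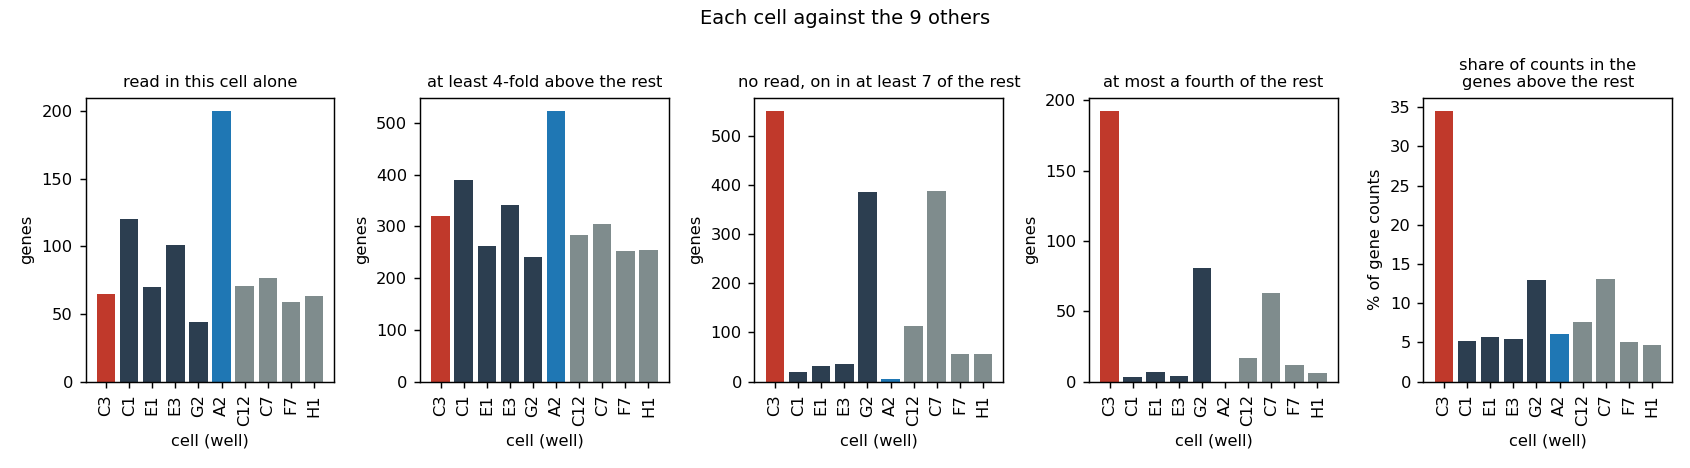
Each of the 10 cells (C3 at the left) set against the 9 rest, with the number of genes read in it alone, at least 4-fold above the rest, without a read though on in at least 7 of the rest, and below the rest, and the share of its counts in the genes above. C3 had 65, 319, 550 and 192 genes and a share of 34.5%, and the last 3 of these 5 values were the highest of the 10 cells.

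The promoters of the 319 genes were searched on both strands for an NF-κB motif, GGG, then any 2 bases, then TTTCC. RefSeq promoter sequence (build GRCm38.p6, 250 bases before to 50 bases after each gene's start) was found for 238 of 313 of these genes with a symbol, and 12 of the 238 (5.04%) held the motif. Of genes missing from or below the others in C3, 7 of 488 (1.43%) held it, and of all 27025 genes with a promoter, 512 (1.89%). An interferon response motif, GAAA, any 2 bases and GAAA, was found in 8 of the 238 (3.36%), in 19 of the 488 (3.89%) and in 1079 of all 27025 genes (3.99%). The reverse complement of the NF-κB motif holds the letters GAAA too. A match describes the sequence and is no measure of binding. No match was found for either motif in the promoters of Sdc4, Il12b, Il7r and Fscn1, and Dnase1l3, Ccl5 and Marcks were not in the sequence table.

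The 250 bases before the start of the 4 named genes with an NF-κB match are shown because these genes were above all other cells in C3. They are written 5′ to 3′ on the strand of the gene, with the match on either strand in capitals, and lie at chr4:150927749-150927998 (plus strand) for Tnfrsf9, chr11:23770970-23771219 (minus strand) for Rel, chr4:31963857-31964106 (plus strand) for Map3k7 and chr6:124769674-124769923 (minus strand) for Eno2.
Tnfrsf9: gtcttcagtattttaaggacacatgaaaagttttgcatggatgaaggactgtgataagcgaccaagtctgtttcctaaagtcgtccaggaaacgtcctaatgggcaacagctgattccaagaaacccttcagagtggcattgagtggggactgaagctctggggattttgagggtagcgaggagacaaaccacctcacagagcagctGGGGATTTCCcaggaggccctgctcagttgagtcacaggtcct
Rel: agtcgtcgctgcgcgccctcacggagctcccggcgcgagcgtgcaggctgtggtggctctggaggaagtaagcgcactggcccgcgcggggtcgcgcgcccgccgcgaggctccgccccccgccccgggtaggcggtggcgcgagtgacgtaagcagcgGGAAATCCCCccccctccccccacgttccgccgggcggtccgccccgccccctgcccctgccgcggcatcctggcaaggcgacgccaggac
Map3k7: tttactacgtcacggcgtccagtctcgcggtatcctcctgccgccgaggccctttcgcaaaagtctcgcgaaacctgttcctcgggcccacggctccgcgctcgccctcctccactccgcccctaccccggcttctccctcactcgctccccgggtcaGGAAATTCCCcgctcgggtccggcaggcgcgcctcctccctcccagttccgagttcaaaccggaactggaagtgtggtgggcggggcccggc
Eno2: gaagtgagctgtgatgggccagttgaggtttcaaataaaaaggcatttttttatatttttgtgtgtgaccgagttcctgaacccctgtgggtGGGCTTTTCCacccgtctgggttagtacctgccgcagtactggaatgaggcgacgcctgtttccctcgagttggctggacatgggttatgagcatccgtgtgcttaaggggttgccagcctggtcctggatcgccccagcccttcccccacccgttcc

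The match began 43 bases before the start in Tnfrsf9, 91 in Rel, 92 in Map3k7 and 158 in Eno2. Tnfrsf9, the costimulatory receptor also called CD137, had 1966 CPM in C3 and 0 to 306 CPM in the others, with a median of 0. Rel, which encodes the NF-κB subunit cRel, had 1562 CPM in C3 and 0 to 365 CPM in the others, with a median of 20.4. Map3k7, the kinase TAK1 that links Toll-like receptors to NF-κB, had 550 CPM in C3 and 0 to 71.8 CPM in the others. All 3 stayed above every other cell on the spike-in scale.

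C3 lacked many genes that the other cells shared. In C3, 550 genes (6.06%) had no read while at least 7 of the 9 others had 10 CPM or more, and 192 genes (2.12%) were at 10 CPM or more in all 9 and in C3 at least 4-fold under the lowest of them. These groups overlap in 119 genes and hold 623 in all. The 192 became 290 when C7 was left out, and the 550 became 311 (without A2) to 451 (without G2) with 7 of the 8 cells left required. Put the other way, 587 genes were at 10 CPM or more in all 9 cells, and C3 reached that level in 407 of them and had no read of 119.

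Genes of the antigen receptor were absent or low in C3. Cd79a, the signaling chain of the receptor, had 0 reads in C3, against 717 (F7), 1011 and 3911 CPM (G2) as the lowest, median and highest of the others, and so was at least 987-fold lower in C3 than in the lowest of them. Igkc, the constant region of the kappa light chain, had no read in C3 and 0.317 (E1) to 23496 CPM (A2) in the others, with a median of 3456. Iglc2, a constant region of the lambda light chain, had 0 reads in C3 and 322 to 3796 CPM in the others, and is named here after its values were seen. The light chain constant genes of the lambda locus are near copies of each other, so reads may be split among them. C3 thus had no read of either gene, while every other cell had reads of both.

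Ighm, the IgM heavy chain constant region, had 3139 CPM in C3, 12960 reads, against 4353 (F7) to 37079 CPM (C12) in the others, with a median of 9367. Cd79b had 177 CPM in C3 and 446 to 8758 CPM in the others. C3 was thus under the whole range for both of the B cell genes that it had. Ms4a1, which codes for CD20, had 1 read in C3 (0.242 CPM) and 54.0 to 8529 CPM in the others. The transcription factor gene Pax5, which holds cells to the B lineage, had no read in C3 but only 0.694 to 76.0 CPM in the others. Pou2af1, a coactivator of immunoglobulin genes, had 0 reads in C3 and 4.83 to 1281 CPM in the others, and Bank1, Blnk, Cd37, Cd72 and Fcrla had 0 reads in C3 and reads in all 9.

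Over the 23 B cell identity genes, C3 was lower than each of the 9 in 13 and higher in none, where 6.7% and 8.3% of all 9071 genes were. It had no read of 18 of the 23, where 68.2% of all genes had none. Their summed level was 3318 CPM in C3 (95% Poisson interval 3263 to 3374) and 13849 to 54564 CPM in the others. The median log2 ratio of C3 to the median of the others, on CPM plus 1, was -6.48 over the list, against 0 over all 9071 genes. That 0 stands for genes with no read in C3 and a median of 0 in the others, so it is no neutral mark for genes with high levels. B cell receptor signaling had 6 of 23 genes on in C3, a share near the 20.8% of all 9071 genes on there. Its summed level was 2034 CPM in C3 and 4352 to 22470 CPM in the others. The receptor-proximal kinases Syk and Lyn and the adaptor Blnk had no read in C3, while Inpp5d, the inhibitory phosphatase SHIP, had 657 CPM in C3 and 4.68 to 1364 CPM in the others. Vav1, which activates Rac, had 530 CPM in C3 and 0 to 450 CPM in the others.

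MHC class II genes were nearly missing from C3. H2-Ab1, the beta chain of I-A, had 0 reads in C3 and 562 to 5326 CPM in the others, at least 773-fold lower in C3 than in the lowest of them, and H2-Aa, its alpha chain, had 1 read in C3 (0.242 CPM) and 321 to 7267 CPM in the others. H2-Eb1, H2-DMa and H2-DMb2 had 0 reads in C3 and reads in all 9. Cd74, the invariant chain that guides class II molecules to the lysosome, had 605 CPM in C3, against 916 (A2) to 10018 CPM (C7) in the others, with a median of 2492. The list of 14 genes summed to 606 CPM in C3 and 3058 to 23902 CPM in the others. C3 had 1 gene on, against 6 to 11, where 20.8% of all 9071 genes were on in C3.

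Other genes known from B cells were missing or nearly so. Ly6d had 0 reads in C3 and 522 to 13186 CPM in the others, Ly6e 0 reads in C3 and 1312 to 5771 CPM in the others. Tnfrsf13b (TACI) and Tnfrsf13c, receptors for survival factors of B cells, had 0 reads in C3 and 29.3 to 2132 and 7.63 to 897 CPM in the others. Cd40, the receptor for T cell help, had 0 reads in C3 and 38.3 to 496 CPM in the others. Swap70, which shapes actin in B cells, had 1 read in C3 (0.242 CPM) and 506 to 3183 CPM in the others. Of all 9071 genes 6.7% were likewise under each of the 9 in C3, and Ly6d, Ly6e, Tnfrsf13b and Swap70 were chosen as missing or below, so that their place is no result.

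The absences reached genes that cells of many kinds express. Gapdh, the glycolytic enzyme often taken as a reference gene, had 0 reads in C3 and 400 to 1833 CPM in the others, at least 551-fold lower in C3 than in the lowest of them. Npm1, the nucleolar protein nucleophosmin, had 16.2 CPM in C3 and 1485 to 5084 CPM in the others, and Hnrnpa2b1, an RNA-binding protein, 7.02 CPM in C3 and 734 to 3691 CPM in the others. Eef2, an elongation factor of translation, had 23 CPM in C3 and 850 to 3155 CPM in the others. Rack1, of the ribosome, had 242 CPM in C3, under the 1836 to 4492 CPM of the others. Mbnl1, a splicing regulator, had 0 reads in C3 and 1107 to 7468 CPM in the others. Actb, by contrast, had 29102 CPM in C3, inside the 16031 to 32914 CPM of the others. Npm1, Hnrnpa2b1, Eef2, Rack1 and Mbnl1 were chosen as missing or below, so that their place is no result. Of all 9071 genes 6.7% were likewise under each of the 9 in C3.

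Of 21 glycolysis genes, C3 had 3 on (Aldoa, Tpi1 and Pkm), against 5 to 14 in the others, and of all 9071 genes it had 20.8% on. The list had a summed level of 928 CPM in C3 and 3586 to 12492 CPM in the others. Pkm, the last enzyme of the pathway, was the one nearest to the others, with 751 CPM in C3 and 610 to 2509 CPM in the others. Aldoa had 54.2 CPM in C3 and 959 to 2940 CPM in the others. Cell cycle genes summed to 458 CPM in C3, nearly all from Pcna (379 CPM), and to 171 (C7) to 16800 CPM (E1) in the others. Mki67 and Top2a, which mark dividing cells, had 2.91 and 1.94 CPM in C3 and 0 to 2190 and 0 to 3568 CPM in the others. C3 was thus not lower than all others in cell cycle genes.

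Among the genes that C3 had, cytokines and chemokines came from few genes. Of 32 in the list C3 had 3 on, Ccl5, Il12b and Cxcl16, and their sum of 22337 CPM stood against 3.64 (E1) to 2344 CPM (A2) in the others and up to 505 CPM without A2. Cxcl16, a chemokine that also exists as a membrane protein, had 531 CPM in C3, 66.5 CPM in A2 and no read in the other 8 cells. The other 29 had no read in C3. These included Il12a, which encodes the partner chain of Il12b in IL-12 and had 0 to 477 CPM in the others, and Il10, with 0 to 305 CPM in the others. Ccl3 and Ccl22, which had 704 and 178 CPM in A2, had no read in C3 either and are named here after their values were seen.

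Cytokine receptors had 10 of 34 genes on in C3, inside the 5 to 13 of the others, with 3770 CPM in C3 and 333 to 2052 CPM in the others. Scaled by spike-ins the sum in C3 lay within the others. Apart from Il7r, they included Csf2rb2, a beta chain for IL-3, with 723 CPM in C3 and 0 to 23.8 CPM in the others. Csf2rb, the beta chain shared by the receptors for GM-CSF and IL-3, had 449 CPM in C3 and 0 to 838 CPM in the others. Both genes are close copies, so their counts may be split. Il2rg, the chain shared by the receptors for IL-2 and IL-7, had 264 CPM in C3 and 0 to 311 CPM in the others. Il21r had no read in C3 and 0 to 721 CPM in the others.

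Chemotactic receptors were led by Ccr7, the receptor for homing to lymph nodes, with 4433 CPM in C3 and 0 to 1274 CPM (A2) in the others, with a median of 0.334. After spike-in scaling the level of Ccr7 in C3 was inside the range of the others. Gpr132, a G protein-coupled receptor, had 662 CPM in C3 and 0 to 35.2 CPM in the others. Cxcr5, which brings B cells to the follicle, had 0 reads in C3 and 0 to 1473 CPM in the others. C3 had 4 of 25 such receptors on, against 1 to 6 in the others.

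Costimulation and adhesion genes summed to 13809 CPM in C3 and 3642 to 8631 CPM in the others, but with spike-in scaling both this sum and the level of Cd44 lay within the others. Cd44, the hyaluronan receptor, had 8514 CPM in C3 and 3.22 to 5191 CPM in the others, and Cd200, an inhibitory ligand for myeloid cells, 1729 CPM in C3 and 0 to 38.9 CPM in the others. Cd80 and Cd86, the ligands of CD28, had 109 and 74.1 CPM in C3 and lay within the others, which had 0 to 119 and 0 to 136 CPM. Cd80 and Cd86 are named after their values were seen. Cd83, a surface protein of mature dendritic cells and activated B cells, had 1 read in C3 (0.242 CPM) and 0 to 1232 CPM in the others.

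NF-κB subunits and inhibitors had 9 of 18 genes on in C3, inside the 6 to 13 of the others, with a higher sum of 7358 CPM in C3 and 481 to 3166 CPM in the others. Relb, the subunit of the alternative pathway, had 3170 CPM in C3 and 0 to 336 CPM in the others, with a median of 0. Nfkbia, which encodes the inhibitor IκBα, had 1013 CPM in C3 and 6.64 to 753 CPM in the others. Nfkbiz, an atypical IκB protein, had 2.18 CPM in C3 and 34.4 to 2883 CPM in the others, and Tnip1, which restrains the pathway, 0 reads in C3 and 1.54 to 250 CPM in the others. The median log2 ratio over the 17 list members at 10 CPM or more in any cell was 1.71, against 0 over all 9071 genes, which, as for the B cell genes, is no neutral mark. Scaled by spike-ins, the sum of the list in C3 lay within the range of the others.

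The receptor for the stimulus gave no reads in C3: Tlr9 had 0 reads in C3 and 0 to 51.3 CPM in the others, 7 of which had none either, and it is named after its values were seen. In the Toll-like receptor pathway 5 of 25 genes were on in C3 and 4 to 13 in the others. Irf5, a transcription factor activated by MyD88, had 777 CPM in C3 and 0 to 113 CPM in the others. Unc93b1, which carries TLR9 to the endosome, had 136 CPM in C3 and 116 to 2652 CPM in the others. Interferon-stimulated genes had 2 of 33 on in C3, against 3 to 11. Of all 9071 genes, 20.8% were on in C3. Irf1 had 1443 CPM in C3 and 0 to 652 CPM in the others.

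Lysosomal genes were a large class in C3. Proteases, nucleases and their inhibitors summed to 33841 CPM in C3 and to 2894 to 9470 CPM in the others, and 10 of 31 members were above and none below all of the others, where 8.3% and 6.7% of all genes were. Of the 31, 13 had no read in C3. The sum was above the others on the spike-in scale too, with 28343 in C3 and up to 23605 in the others. Of the sum in C3 on that scale, 12703 came from the marker Dnase1l3, so its place is not separate from that marker. Lipa, the lysosomal acid lipase, had 3841 CPM in C3 and 0 to 782 CPM in the others, and Cst3 (cystatin C), a protease inhibitor, 2705 CPM in C3 and 0 to 210 CPM in the others. Ctss, which cleaves the invariant chain, had 2643 CPM in C3 within the 55.0 to 3135 CPM of the others. Ctsc had no read in C3 and 0 to 1468 CPM in the others.

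Proteoglycan genes were on in C3 in 5 of 20, against 3 to 5 in the others, with 43127 CPM in C3 and 924 to 8291 CPM in the others. Apart from Sdc4 and Cd44, Gpc1, a heparan sulfate proteoglycan with a lipid anchor, had 884 CPM in C3, 4.80 CPM in A2 and no read in the other 8. Srgn, the proteoglycan of secretory granules, had 557 CPM in C3 inside the 59.3 to 1065 CPM of the others.

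The actin and membrane cytoskeleton list showed both extremes, with 12 of 40 genes above and 7 below all of the others, beside 8.3% and 6.7% of all genes, and 13 with no read in C3. Its sum was 72208 CPM in C3 and 28938 to 54850 CPM in the others, and on the spike-in scale it lay within them. Tmsb4x, thymosin beta, which holds actin monomers, had 9585 CPM in C3 and 699 to 3821 CPM in the others, and Arhgdib 5103 CPM in C3 and 969 to 3888 CPM in the others. Capg, Rac2, Coro1a and Msn, chosen after their values were seen, went the other way. Rac2, the Rac GTPase of blood cells, had 0 reads in C3 and 663 to 5565 CPM in the others, and Capg, which caps actin filaments, 0 reads in C3 and 317 to 1724 CPM in the others. Coro1a had 7.51 CPM in C3 and 670 to 1367 CPM in the others, and Msn (moesin) 0.969 CPM in C3 and 58.0 to 1170 CPM in the others.

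MHC class I presentation contrasted with class II. In C3, 13 of 18 genes were on, within the 10 to 16 of the others, and 9 were above all of them (8.3% of all genes were), for a sum of 22989 CPM in C3 and 4729 to 13767 CPM in the others. B2m, the light chain of class I molecules, had 8243 CPM in C3 and 701 to 3302 CPM in the others, H2-D1, a heavy chain, 4594 CPM in C3 and 264 to 2965 CPM in the others. Psme1, an activator of the immunoproteasome, had 2034 CPM in C3 and 114 to 605 CPM in the others. On the spike-in scale the sum lay within the range of the others, and so did B2m and H2-D1, while Psme1 was above it. Class I heavy chain genes are close copies of each other, so their counts may be split.

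Of the lineage transcription factors, Id2, an inhibitor of E proteins that dendritic and innate lymphoid cells need, had 11931 CPM in C3, against 0 (C12 and H1), a median of 179 and a highest of 1701 CPM (G2). Rbpj, which mediates Notch signals, had 1125 CPM in C3 and 0 to 90.9 CPM in the others. Lower than in all 9 were Irf8, with 1 read in C3 (0.242 CPM) and 43.8 to 1236 CPM in the others, and Tcf4, an E protein, with 23 CPM in C3 and 160 to 1661 CPM in the others. Ebf1, a factor of early B cell development, had 1.21 CPM in C3 and 0 to 1120 CPM in the others. In the apoptosis list Birc3, an inhibitor of apoptosis, had 1534 CPM in C3 and 0.495 to 802 CPM in the others, and Mcl1, a survival protein of the Bcl-2 family, 0 reads in C3 and 28.5 to 1105 CPM in the others. ER folding and secretion genes were close to the others, with 17 of 24 on and 15905 CPM in C3, inside 6468 to 22318 CPM.

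Marker lists of other cell types gave no match for C3 as a whole. Of 14 markers shared by dendritic cells, class II genes among them, C3 had 6 on, Id2, Ccr7, Dpp4, Cst3, Tbc1d4 and Cd74, inside the 5 to 10 of the others, with a sum of 25361 CPM in C3 and 3727 to 22617 CPM (G2) in the others, and the sum was within the others on the spike-in scale. Dpp4 (CD26) had 2884 CPM in C3 and 1.90 to 509 CPM in the others. Of the markers of mature dendritic cells 9 of 22 were on in C3, against 15 in A2 and 3 to 7 in the other 8 cells. In C3, 6 of the 22 were above and 1 was below all others, beside 8.3% and 6.7% of all genes. Another 9 had no read, beside 68.2% of all genes. The list summed to 9824 CPM in C3, led by Relb, Tnfrsf9 and Traf1, and to 334 to 2710 CPM (E3) in the others. This sum too lay within the others on the spike-in scale. Cd40 and Ccl22, in the same list, had no read in C3. Type 1 dendritic cell markers had 1 of 12 on in C3, Cadm1, an adhesion protein, with 157 CPM in C3 and no read in the others, while Xcr1 and Clec9a had no read in C3. Type 2 markers had 0 of 10 on in C3 and 1 read of Itgam, and Siglech, of plasmacytoid dendritic cells, had no read. The markers that define each type are named after their values were seen.

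Macrophage markers had 3 of 14 on in C3, with 746 CPM in C3 and 0 to 1890 CPM in the others. Adgre1, a macrophage surface receptor, had 452 CPM in C3 and 0 to 1860 CPM in the others, and Spic, a factor of red pulp macrophages, 275 CPM in C3, 26.9 CPM in A2 and no read in the other 8. Lyz2 had no read in any of the 10 cells. Natural killer and innate lymphoid markers had 1 of 13 on in C3, Klrk1, and mast cell and basophil markers 1 of 8, Kit, with 224 CPM in C3, 101 CPM in A2 and no read in the other 8. Monocyte, neutrophil, T cell, erythroid, platelet and stromal markers had 0 reads in C3. Plasma cell markers summed to 3.15 CPM in C3 and 406 to 4220 CPM in the others, with no read of Mzb1 in C3 and 381 to 2796 CPM in the others.

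**Figure D3:**
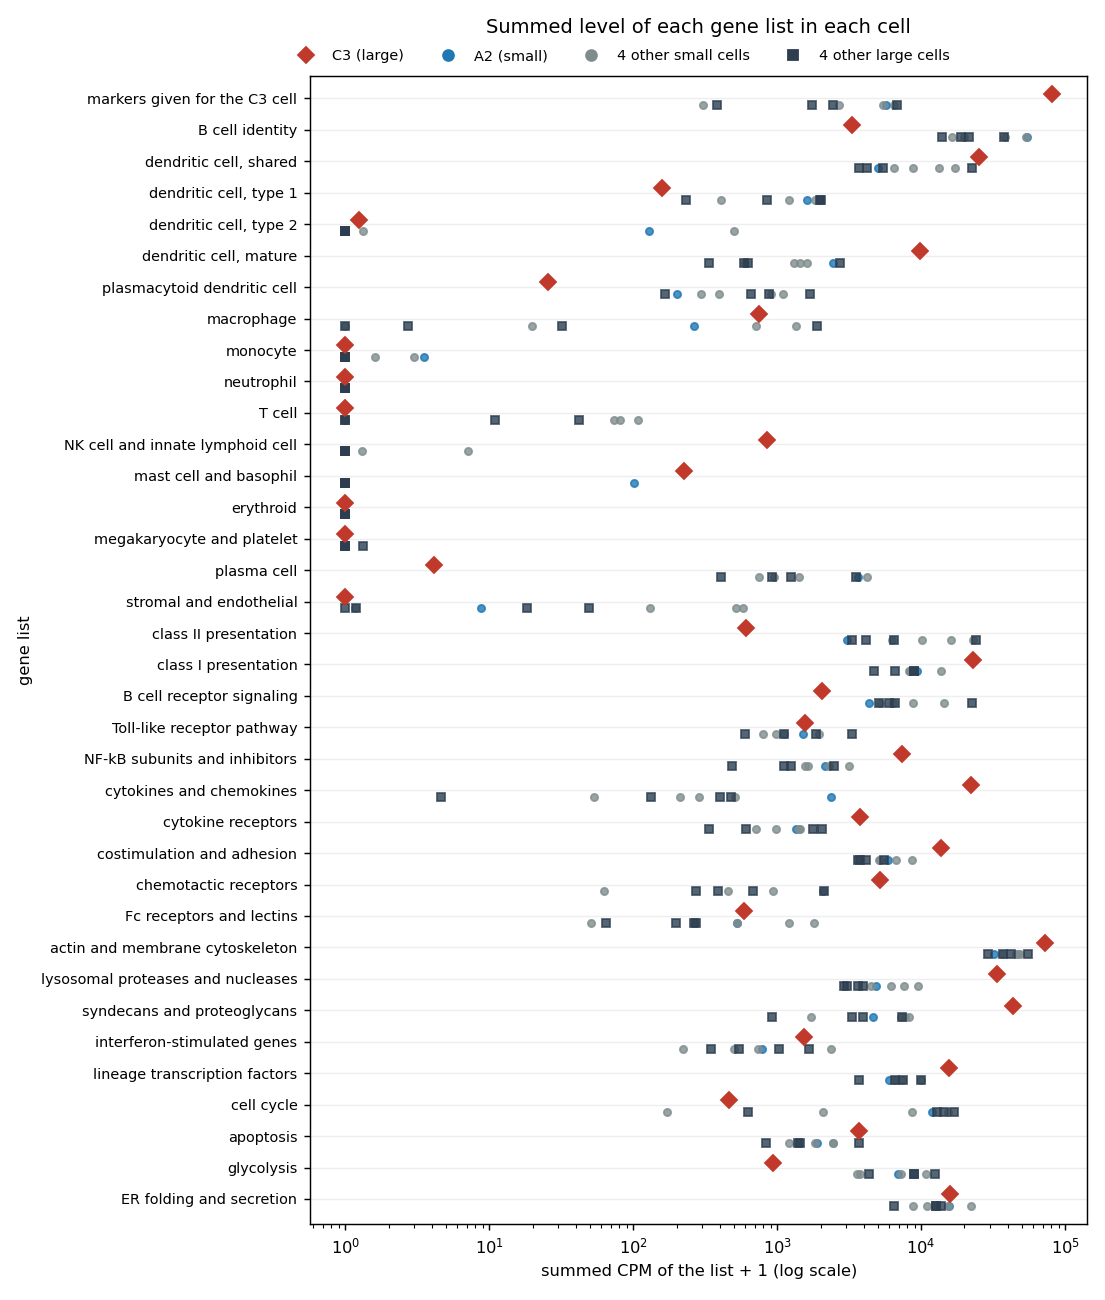
Summed CPM plus 1 (log axis) of each of 36 gene lists in C3 (diamond, upper) and in the 9 other cells (lower symbols). C3 lay above all other cells in 16 lists, such as cytokines and chemokines with 22337 CPM, and below them in 7, such as B cell identity with 3318 CPM.

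Over all 36 lists, the sum in C3 was above all others in 16 and below all others in 7 on the CPM scale. On the spike-in scale it was above in 5, the 7 markers, natural killer and innate lymphoid genes, cytokines and chemokines, lysosomal genes, and proteoglycans, and below in the same number, 7. Markers of C3 gave much of these sums: Sdc4 27097 of 36120 for proteoglycans and Dnase1l3 12703 of 28343 for lysosomal genes. Ccl5 and Il12b gave 12365 and 5898 of 18708 for cytokines and chemokines. The natural killer sum came from Klrk1 alone. These places are thus not separate from the choice of the markers or from single genes. The factor of C3 was 0.203, against 0.0998 (G2) to 1 (C1) in the others, and its scaled total of 837532 was the second lowest after G2 (557519), while A2 had 4867990. On this scale 179 genes (1.97%) were at least 4-fold above all others in C3 and 214 (2.36%) at least 4-fold below them. Of the 62 named genes above all others on the CPM scale 46 stayed so, and of the 50 below all others all 50 did. Many of them were chosen for their place on the CPM scale, and a count of 0 stays 0 under any factor, so these numbers are no check of the scale.

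A2, a small cell, shared more genes with C3 than any other cell did. Of 115 genes at 10 CPM or more in C3 and with no read in the 8 cells other than A2, 50 had a read in A2 and 37 were at 10 CPM or more there. The same counts made with each of the other 8 cells as the partner gave 1 to 6 and 0 to 3. A2 had the most genes of any cell, and as the partner of the other 8 cells it had a read of 15 to 52 of their genes and 10 CPM or more of 7 to 28. Over the 37 genes A2 held 0.803% to 1149% of the level in C3, with a median of 14.8%. Pla2g4f, a cytosolic phospholipase, had 3638 CPM in C3 and 29.2 CPM in A2, Tbc1d4, a Rab GTPase regulator, 2802 CPM in C3 and 416 CPM in A2, and Cd68, a lysosomal protein of macrophages, 19.1 CPM in C3 and 220 CPM in A2. Pla2g4f and Tbc1d4 are named after their values were seen. In 5 of the 37 genes A2 was higher than C3. A2 also carried the B cell genes that C3 lacked, such as Igkc with 23496 CPM. The part of A2 in the genes of C3 was not tested.

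**Figure D4:**
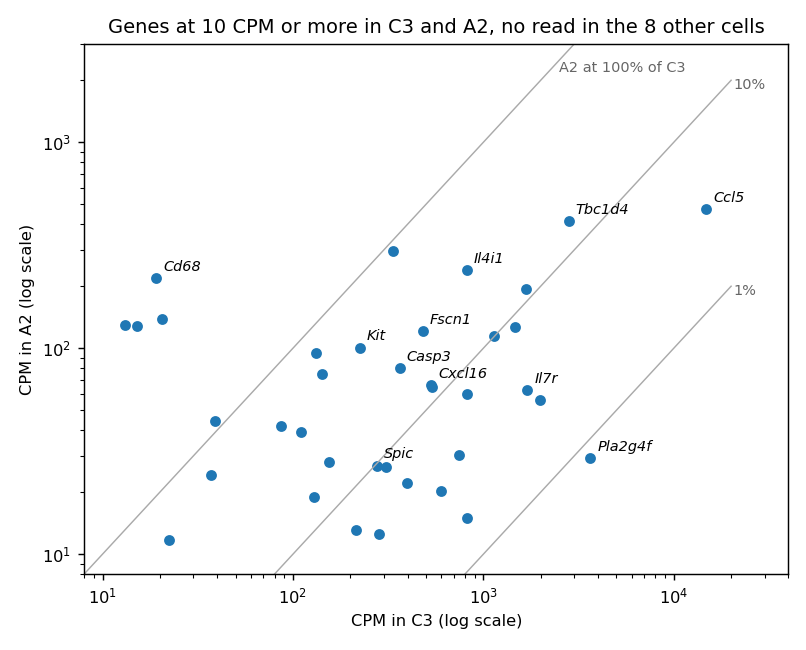
CPM in A2 (vertical, log axis) against CPM in C3 (horizontal, log axis) of the 37 genes at 10 CPM or more in both and with no read in the other 8 cells, with lines where A2 holds 100%, 10% and 1% of the level of C3. The ratio ran from 0.803% (Pla2g4f) to 1149% (Cd68) with a median of 14.8%.

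Across genes, C3 was the least like the other cells. The authors had left it out for low correlation in these same data, so this place is no separate result. The Pearson correlation of log2(CPM + 1) between C3 and each of the 9 was 0.401 (C7) to 0.489 (A2), with a median of 0.441, while the 36 pairs among the 9 gave 0.498 to 0.736, with a median of 0.604. C3 and the others thus did not overlap in this measure. Every one of the 9 had its lowest correlation with C3. C7 and G2, the other 2 cells with few genes, had medians of 0.517 and 0.515. With the pooled library of cells after 24 h, C3 had a correlation of 0.433 and the others 0.504 to 0.668. Genes are not independent replicates, and the number of genes read differs between the cells, so these values are descriptions.

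**Figure D5:**
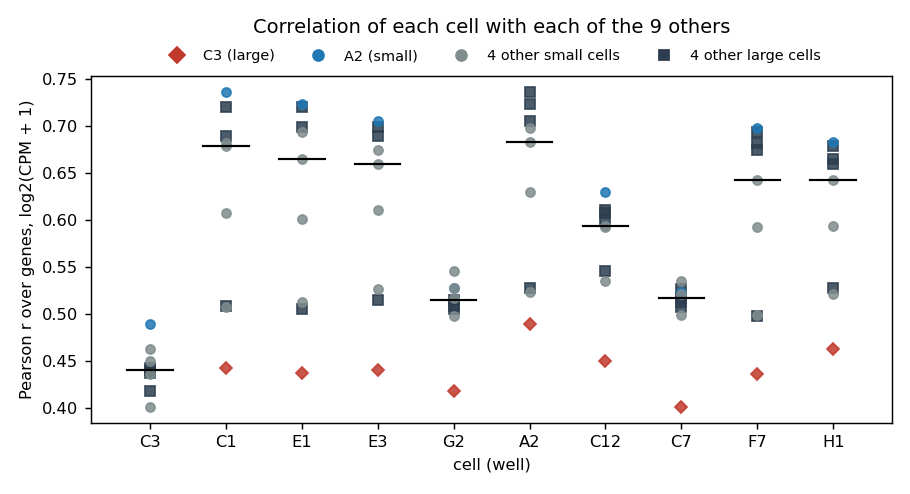
Pearson correlation of log2(CPM + 1) across genes of each cell (C3 at the left) with each of the 9 other cells, with the median of each cell as a black line. The values of C3 ran from 0.401 to 0.489, below the 0.498 to 0.736 of all 36 pairs among the other cells. C3 had been left out by the authors for low correlation.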

How the data were processed

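Transcripts of 10 single cells, a pooled 24 h library, a pooled unstimulated library and a library of spike-in RNA alone were sequenced. The authors made cDNA by template switching and PCR on the microfluidic chip, aligned the reads to the mouse build NCBI m37 with STAR (version not stated) and deposited raw counts per gene, in a table of 37991 genes of which 86.6% have a symbol. No counting tool is named in the labels, the files or the methods. They also deposited a normalization factor per library, a ratio from a linear fit to abundant spike-in RNAs, and the imaged area and relative volume of each cell as a ratio. The 26 other columns of the count table (adjusted values and other derived values) were not used.

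From the counts, CPM was computed over all gene counts of a library, and the spike-in scale as count times factor. A gene was called on at 10 CPM or more. Groups were defined in the text, with a floor of 3 counts in a library for folds and a fold of 4. No test was made, since 1 cell stands on one side, and no doublet caller was run on 10 imaged cells. Poisson intervals cover counting error only. The 163 named genes are the 7 markers, the 15 genes with the highest level among those read in C3 alone, the 15 with the largest fold among those above the others, the 20 missing or below with the highest median in the others, and the leading 3 members of each list in C3 and in the others, with members that C3 alone has or lacks in lists of at most 25. Genes with no symbol and predicted genes were counted only, and values of some named genes are not reported here. The members and lists were chosen with earlier results of these data known. Of 638 symbols in the 36 lists, 630 were found.

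Alternatives were other minimums, folds and scales, each cell left out in turn, either size class alone, and other measures of likeness. The counting code was tested on simulated data. The pooled unstimulated library (825441 counts, 18283 genes at 10 CPM or more, correlation with the cells 0.174 to 0.326) was not used as a comparison. The spike-in library held 190 gene counts. The tools were matplotlib 3.10.9, pandas 2.3.3 and numpy 2.4.6, with scipy 1.17.1, under Python 3.11.15.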

Additional observations from a re-analysis of the deposited data

Results flagged for a closer look

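Among 42 groups of values over the small cells or over the 4 other large cells, 12 had 1 cell far from the others of its group, where chance gives about 1 in 20 for normally distributed values. In a group whose other values are all 0 a single read is enough, as in E1 for Il12b, so 12 of 42 cannot be read against that share. C3 itself is in neither group.

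A2 stood apart from the other small cells in 5 marker genes of C3. It had 474 CPM of Ccl5, 466 CPM of Il12b, 62.8 CPM of Il7r and 121 CPM of Fscn1, each against 0 in the other small cells, and 945 CPM of Marcks, against 0 to 3.28. Its summed level of cytokines and chemokines was 2344 CPM, against 52.5 to 505 in the other small cells. H1 had the highest sum of class I presentation genes, 13767 CPM, against 8173 to 9330 in the other small cells.

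Among the other large cells, G2 had a summed level of 22617 CPM for the markers shared by dendritic cells, against 3727 to 5391, and of 23902 CPM for class II presentation, against 3332 to 6453, lists that share genes. G2 also had reads on the fewest genes, 4430, against 7138 to 7354. E3 had a sum of 2710 CPM for mature dendritic cell markers, against 334 to 623. E1 had 0.158 CPM of Il12b, 1 read, against 0.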

How the results depend on the processing

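The number of genes read in C3 alone (65) was 41 with a minimum of 50 CPM and 103 with no minimum beyond 3 counts, and 160 against the 4 other large cells only. It was 125 where an adjusted count (count times factor plus 100) above 300 marked a gene as present. With each other cell left out in turn it ran from 66 to 115, the highest without A2. The number above all others (319) was 179 on the spike-in scale, 495 at 2-fold, 198 at 10-fold and 533 against the 4 large cells, and ran from 327 to 363 with each cell left out. The number missing (550) was 242 with a minimum of 50 CPM, 915 with 2 CPM and 1231 with 3 counts. It was 338 against the large cells, 216 against the 5 small cells and 334 with adjusted counts. Requiring all 9 cells gave 119, at least 5 of 9 gave 1492, and leaving out each cell gave 311 to 451, lower because 7 of 8 cells were then required. The number below all others (192) was 89 with a minimum of 50 CPM, 506 against the large cells and 349 against the small cells, and ran from 195 to 290 with each cell left out, the highest without C7. Fewer cells to be above or below raise such counts by construction.

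The median correlation of C3 (0.441) was 0.415 with log2(CPM + 10), 0.306 as Spearman's rho over genes with a read and 0.254 over genes at 10 CPM, and was the lowest of the 10 cells each time, next to 0.50, 0.338 and 0.310 in the next cell. On the spike-in scale 5 lists were above all others in place of 16, and 7 below. Against the 8 cells other than A2, an alternative chosen after seeing the data, 16 and 7 stayed. Of the named genes 144 kept their place on the spike-in scale and 19 moved, of the list sums 25 kept it and 11 moved, and none turned round. Many named genes were chosen for their place on the CPM scale, so this is no independent check. No paired analysis was possible because replicate numbers only name the cells and no test was made. A single cell of one kind leaves the spread between such cells unknown, and a gene with 0 reads in C3 may have been present under about 0.727 CPM or lost before sequencing, which cannot be told apart.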

Other observations

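Several gene groups, chosen after values were seen, were set beside the same cells. Genes of sterol synthesis and uptake were widely on in C3. Of 16 measured, 11 were on and 8 were above all other cells, where 20.8% and 8.3% of all 9071 genes were, with a sum of 6368 CPM in C3 and 1.79 to 2461 CPM in the others. Lss, which closes the sterol ring, had 1644 CPM in C3 and 0 to 8.07 CPM in the others, and Mvd, of the mevalonate pathway, 440 CPM in C3 and 0 to 33.0 CPM in the others. On the spike-in scale the sum in C3 was within the others.

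Lipid mediator genes summed to 12426 CPM in C3 and 0 to 437 CPM in the others, and on the spike-in scale C3 was above them too. Of the 13 genes, 5 were on in C3 and 8 had no read, Alox5 and Ptgs1 among them. Over all 9071 genes, 20.8% were on in C3 and 68.2% had no read. Ptafr, the receptor for platelet-activating factor, had 5772 CPM in C3 and 0 to 37.3 CPM in the others, and Pla2g7, the enzyme that degrades this factor, 2392 CPM in C3 and 0 to 104 CPM in the others. Ptgs2, the inducible cyclooxygenase, had 337 CPM in C3 and no read in the others. The iron storage genes Fth1 and Ftl1 had 13354 and 13543 CPM in C3 and 1017 to 8918 and 875 to 5001 CPM in the others, with the limit that both have pseudogenes that may take reads. Ftl1 and the sum of both genes in C3 lay within the others on the spike-in scale.

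Of the 8 subunits of the CCT chaperonin, a ring that folds actin and tubulin, C3 had reads of Cct2 and Cct4 and no read of the other 6, a share near the 68.2% of all 9071 genes with no read in C3. Their sum was 669 CPM in C3 and 2205 to 9775 CPM in the others. The ATPase ring of the proteasome summed to 106 CPM in C3 and 498 to 3136 CPM in the others, while the 14 subunits of the constitutive core had 11 on and 2627 CPM in C3, inside 1366 to 5688 CPM.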
